A study of Arabidopsis thaliana with 6 samples.

Results

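The 140 genes described here are the rows of the deposited expression table whose locus code starts with ATMG, the prefix that the Arabidopsis Genome Initiative gave to genes of the mitochondrial genome. They are 140 of 28387 genes in the table, and every such row was kept. Plant mitochondria carry a small circular-mapping genome that encodes a core set of subunits of the respiratory complexes, proteins that attach haem to cytochrome c, part of the mitochondrial ribosome, some tRNAs and the rRNAs. All other mitochondrial proteins are encoded in the nucleus and imported, so most respiratory complexes are assembled from the products of both genomes. Mitochondrial transcripts are made by nuclear-encoded phage-type RNA polymerases, and many of them are spliced, trimmed and edited before translation.

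The study set leaves of Arabidopsis thaliana line atpip1;2-1, a T-DNA mutant of the plasma membrane aquaporin gene PIP1;2, against leaves of the wild type N-60000. Both groups were 3 weeks old and grown in a greenhouse, and no other treatment or allele is labelled. Each group has 3 arrays, each with total RNA from 5 plants, so that 15 plants stand behind each line. The mutant group is a single insertion line, and a pool of plants gives no spread between single plants. Values are log2 array intensities after robust multi-array average normalization (RMA), and a log2 fold change is the atpip1;2-1 mean minus the wild-type mean.

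The targeted gene was checked first. PIP1;2 (AT2G45960) stood at 5.16, 5.51 and 5.18 on the atpip1;2-1 arrays and at 8.73, 9.14 and 8.74 on the wild-type arrays, a difference of -3.59 log2 units with a standard error of 0.18 and an adjusted p of 0.000148 in limma's test. The 5 leaf markers had group means between 9.01 and 10.85, and the 7 markers of flower, pollen, seed and root hair had group means between 1.64 and 2.89, beside a level of 2.20 below which the dimmest 25% of genes lie. None of these 12 markers passed the test. All 5 leaf markers had higher means in the mutant, by 0.15 to 0.68 log2 units. The flower markers AG and AP3 differed by -0.28 and -0.50 and the pollen marker VGD1 by -0.41. The seed markers SESA1 and CRA1 differed by -0.74 and 0.60, and the root hair markers RHD6 and SHV2 by -0.04 and 0.03. What part these differences have in the results below was not tested. Correlations between arrays ran from 0.975 to 0.989.

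Product names came from several sources of unequal strength. For 18 of the 39 named protein and rRNA codes, a probe set with the same values (within 0.05 on every array) carried the gene symbol in the platform annotation. For 12 others the symbol stood only on a probe set with other values, and for 9 codes (nad3, atp4, atp6-1, atp6-2, atp8, ccmC, rrn5, rrn18 and rrn26) the name rests on the public locus nomenclature alone. The 13 tRNA codes were recognised because their values are identical to those of nuclear rows that the RefSeq table lists as tRNA genes. The other 88 codes are given as rows with no assigned product.

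Mitochondrion-encoded genes were mostly higher in atpip1;2-1. Of the 140 rows, 126 had a log2 fold change above 0, where 48.4% of all genes in the table did. The median log2 fold change of the 140 rows was 0.37, and that of all 28387 genes was -0.01. The single gene that passed the test, cob, rose. The threshold was an adjusted p of 0.05 in limma's moderated test with Benjamini-Hochberg adjustment over all genes, which 0.187% of all genes passed as higher in the mutant and 0.342% passed in either direction.

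At an unadjusted p under 0.05, 60 of the 140 rows were higher and 0 were lower, where 5.92% of all genes were higher and 6.32% lower at that level. At an adjusted p of 0.10 there were 5 rows, cob, cox2, nad6, nad5c and ATMG00810, all higher, against 0.359% of all genes as higher and 0.673% in either direction. On 82 rows every atpip1;2-1 array lay above every wild-type array, an arrangement that 9.30% of all genes showed. The opposite arrangement occurred on 1 row, ATMG01050, against 9.24% of all genes. A log2 fold change above 0.5 was found on 40 rows, against 4.58% of all genes. In bulk leaf RNA, a change in the number of mitochondria or cells of a type and a change in RNA per mitochondrion or cell cannot be told apart.

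Class medians were above 0 throughout. The 23 rows for subunits of the respiratory complexes had a median log2 fold change of 0.62, the 5 cytochrome c maturation genes 0.43, the 13 tRNAs 0.45, the 88 rows with no assigned product 0.34, the 6 ribosomal protein genes 0.29 and the 3 rRNAs 0.08. Non-overlapping arrays with higher mutant values were found for 21 of the 23 respiratory rows, 4 of 5 maturation genes and 5 of 6 ribosomal protein genes. They were also found for 7 of 13 tRNAs, which hold 11 distinct sets of values, and 1 of 3 rRNAs. Of the 88 rows with no assigned product, 42 were non-overlapping and higher and 1 was non-overlapping and lower. Among all genes, 9.30% were non-overlapping and higher and 9.24% non-overlapping and lower. These medians describe the classes, and no test between classes was made.

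**Figure D1:**
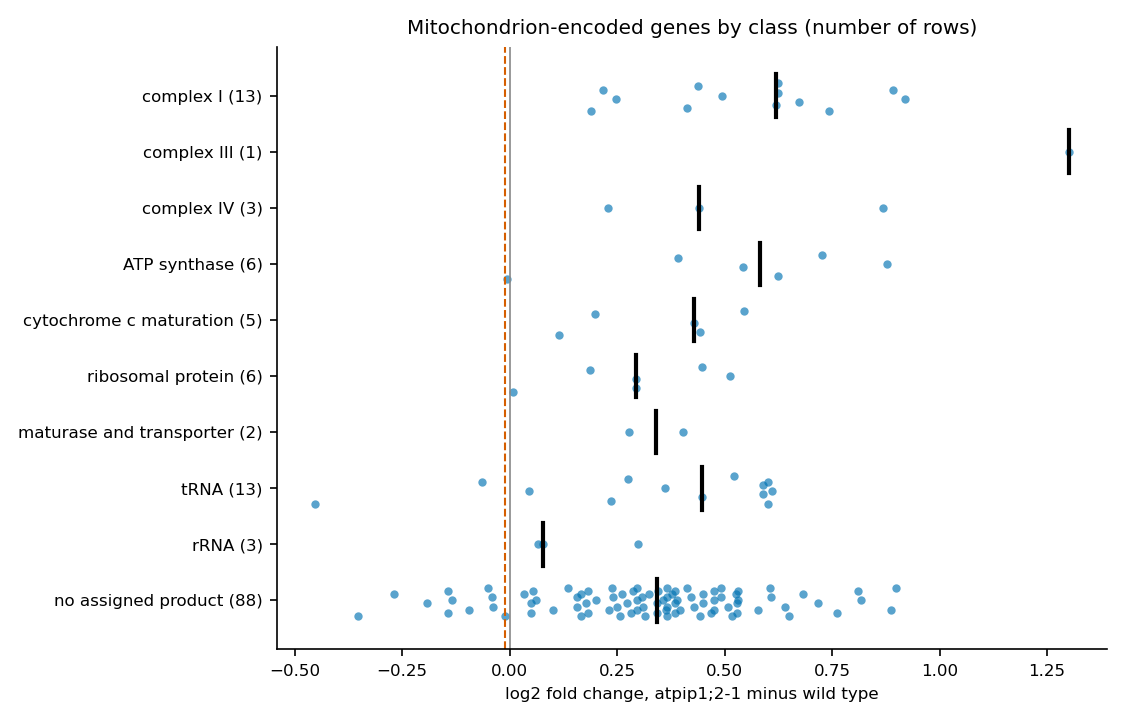
Log2 fold change (x axis) of each of the 140 mitochondrion-encoded rows, grouped by class (y axis, number of rows in brackets); black bars are class medians, the dashed line is the median of all 28387 genes at -0.01 and the grey line is 0. Only cob lies above 1, at 1.30, and 14 of the 140 points lie below 0.

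Complex III of the respiratory chain passes electrons from ubiquinol to cytochrome c, and apocytochrome b, its haem-carrying membrane subunit, is encoded by cob (ATMG00220). The cob row stood at 11.61, 11.57 and 12.05 on the atpip1;2-1 arrays and at 10.51, 10.42 and 10.39 on the wild-type arrays. The groups did not overlap, and the lowest mutant array lay more than 1 log2 unit above the highest wild-type array. Expression of cob rose by 1.30 log2 units (SE 0.18), or 2.46-fold, with an adjusted p of 0.0219. Each array left out in turn ended this call, with adjusted p between 0.0549 and 0.112 and log2 fold changes between 1.15 and 1.39. Those fits called 14 to 48 genes of the whole table, against 97 with all arrays. Without moderation of the spread, where 0 genes of the whole table were called, the adjusted p of cob was 0.181.

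Other rows share annotation with cob. The probe set that matches the cob row is also assigned to the nuclear locus AT2G07727, whose own row was higher by 0.51 log2 units (SE 0.16) with an adjusted p of 0.243. A further mitochondrial row, ATMG00590, has the same values as the nuclear row AT2G07718 and matches a probe set labelled for cob. It was higher by 0.61 log2 units (SE 0.16, adjusted p 0.186), and its 3 mutant arrays (10.08, 10.09 and 10.40) lay above its 3 wild-type arrays (9.62, 9.59 and 9.53). These 3 rows all had higher values in the mutant, by unequal amounts. ATMG00590 was singled out after its values were seen.

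Complex I, the NADH dehydrogenase at the entry of the chain, contributed 13 rows, and all 13 were higher in atpip1;2-1, with log2 fold changes from 0.19 to 0.92 and a median of 0.62. None passed the adjusted threshold, while 10 had an unadjusted p under 0.05, where 5.92% of all genes were higher at that level. Non-overlapping arrays with higher mutant values were found for 12, against 9.30% of all genes. The membrane subunit gene nad6 (ATMG00270) stood at 9.35, 9.29 and 9.57 in the mutant and at 8.58, 8.58 and 8.30 in the wild type. Its difference of 0.92 log2 units (SE 0.17) had an adjusted p of 0.0666.

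The membrane subunit NAD5 is encoded in pieces that are joined by trans-splicing, and 2 of its rows were measured. The row nad5c (ATMG00060) stood at 10.59, 10.45 and 10.85 in the mutant and at 9.68, 9.80 and 9.72 in the wild type. Its log2 fold change was 0.89 (SE 0.17, adjusted p 0.0727). For nad5a (ATMG00513) the mutant arrays read 11.47, 11.56 and 11.82 and the wild-type arrays 10.88, 10.83 and 10.92, a difference of 0.74 log2 units (SE 0.16, adjusted p 0.116). On both rows all mutant arrays lay above all wild-type arrays.

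The peripheral-arm subunit gene nad9 (ATMG00070) had closely grouped arrays, at 11.33, 11.20 and 11.27 in the mutant and at 10.62, 10.62 and 10.70 in the wild type, a difference of 0.62 log2 units (SE 0.15, adjusted p 0.145). At the other end of the class were pieces of nad1, a membrane subunit gene. The row nad1a (ATMG01275) stood at 10.60, 10.67 and 10.50 in the mutant and at 10.32, 10.40 and 10.40 in the wild type, and differed by 0.22 log2 units. Its groups were narrowly separate. The row nad1b (ATMG01120) read 12.00, 12.01 and 11.90 against 11.94, 11.73 and 11.66, so that its groups overlapped, and differed by 0.19 log2 units. Adjusted p was 0.609 for nad1a and 0.680 for nad1b. The remaining rows, nad7, nad2a, nad2b, nad1c, nad4, nad4L and nad3, lay between 0.25 and 0.67, each with non-overlapping arrays.

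Cytochrome c oxidase, complex IV, reduces oxygen, and the mitochondrial genome encodes its 3 core subunits. All 3 rows had non-overlapping arrays with higher values in the mutant, where 9.30% of all genes did. For cox2 (ATMG00160), whose product carries the copper centre that accepts electrons from cytochrome c, the mutant arrays read 10.75, 10.65 and 10.87 and the wild-type arrays 9.95, 9.80 and 9.91. The log2 fold change of cox2 was 0.87 (SE 0.15), with an adjusted p of 0.0598.

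The catalytic subunit gene cox1 (ATMG01360) stood at 12.67, 12.72 and 12.84 against 12.47, 12.47 and 12.61, a difference of 0.23 log2 units (SE 0.15, adjusted p 0.594). The row of cox3 (ATMG00730) read 9.59, 9.39 and 10.10 against 9.34, 9.19 and 9.22. Its log2 fold change of 0.44 (SE 0.20, adjusted p 0.419) came with a mutant SD of 0.36 (n = 3), because atpip1;2-1 replicate 3 lay well above replicates 1 and 2. Without that array the log2 fold change of cox3 was 0.24. A row with no assigned product, ATMG01280, matches a probe set labelled for both the nuclear locus AT2G07695 and cox2, and its log2 fold change was -0.01 (SE 0.15).

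The ATP synthase uses the proton gradient to make ATP, and 6 rows encode parts of it. On 5 of them all mutant arrays lay above all wild-type arrays, against 9.30% of all genes. All 5 had an unadjusted p under 0.05, where 5.92% of all genes were higher at that level, and no adjusted p was below the threshold. The catalytic-head subunit alpha gene atp1 (ATMG01190) stood at 10.79, 10.63 and 11.14 in the mutant and at 9.65, 10.36 and 9.92 in the wild type. Its log2 fold change was 0.88 (SE 0.22, adjusted p 0.164), and its wild-type SD of 0.36 (n = 3) was wide because replicate 2 lay high.

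Both atp8 and atp4 encode membrane-sector or stalk subunits. The row of atp8 (ATMG00480) read 11.37, 11.51 and 11.92 in the mutant and 10.66, 10.76 and 11.19 in the wild type, a difference of 0.73 log2 units (SE 0.21, adjusted p 0.220). It is identical on all arrays to the nuclear row AT2G07707, so the pair is 1 measurement. The row of atp4 (ATMG00640) read 10.79, 10.79 and 11.24 against 10.20, 10.33 and 10.43, a difference of 0.62 log2 units (SE 0.18, adjusted p 0.222). For atp9 (ATMG01080), which encodes the proton-carrying ring subunit, the values were 9.69, 9.56 and 9.58 against 9.18, 9.33 and 9.15, a difference of 0.39 log2 units (SE 0.15, adjusted p 0.346).

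The proton-channel subunit a is encoded by a pair of gene copies that differ in part of their sequence. The row atp6-1 (ATMG00410) stood at 9.89, 9.58 and 10.03 in the mutant and at 9.54, 9.29 and 9.04 in the wild type, a difference of 0.54 log2 units (SE 0.19, adjusted p 0.308). The row atp6-2 (ATMG01170) stood at 12.58, 12.54 and 12.44 against 12.69, 12.56 and 12.32, a difference of -0.01 log2 units (SE 0.16, adjusted p 0.995). Its groups overlapped fully, and the sign of this near-zero value changed under other scaling. The difference between the pair of fold changes was 0.55 log2 units, with non-overlapping arrays. Its exact permutation p was 0.1, two-sided, the smallest that 3 against 3 arrays allow, and 0.2 after adjustment over the 8 pairs compared below. This p makes no allowance for the choice of those pairs. The atp6-1 row matches a probe set that carries the nuclear loci AT2G07741 and AT2G07835. Rows of these loci differed by 0.03 and 0.65 log2 units, and what part shared signal has in the contrast was not tested.

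**Figure D2:**
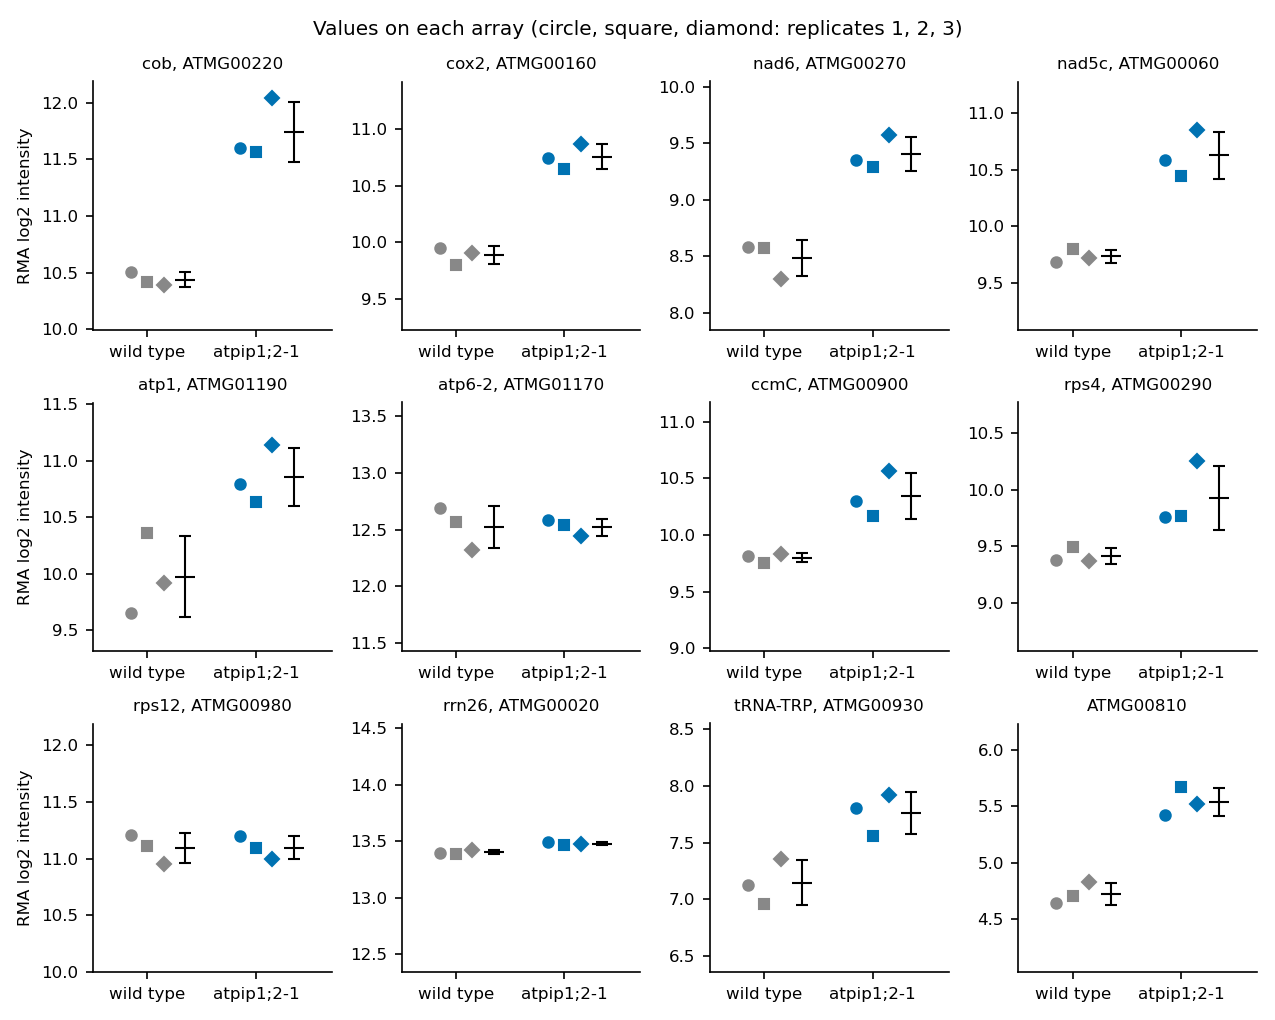
RMA log2 intensity (y axis) on each of the 3 wild-type (grey) and 3 atpip1;2-1 (blue) arrays for 12 mitochondrion-encoded rows, with the mean and SD (n = 3) in black; every panel spans the same number of log2 units. The groups are far apart for cob and lie on top of each other for atp6-2 and rps12.

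Cytochrome c maturation proteins carry and attach haem in the intermembrane space, and all 5 of their rows had higher means in the mutant. The row ccmC (ATMG00900), for a haem-handling membrane protein, stood at 10.30, 10.17 and 10.56 in the mutant and at 9.81, 9.76 and 9.83 in the wild type, a difference of 0.54 log2 units (SE 0.16, adjusted p 0.238). For ccmB (ATMG00110), a membrane part of the haem-release transporter, the arrays read 9.00, 8.88 and 9.09 against 8.62, 8.57 and 8.46. The difference was 0.44 log2 units, and the groups were separate.

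Haem ligation depends on the CcmF proteins, encoded in Arabidopsis mitochondria by separate genes. The row ccmFN2 (ATMG00960) stood at 9.86, 9.95 and 10.04 against 9.61, 9.56 and 9.40 and differed by 0.43 log2 units. The row ccmFC (ATMG00180) stood at 10.61, 10.59 and 10.75 against 10.51, 10.41 and 10.44 and differed by 0.20, with separate groups. The overlapping row was ccmFN1 (ATMG00830), at 7.15, 7.25 and 7.39 against 7.40, 6.97 and 7.07, with a difference of 0.12 log2 units that ran from 0.03 to 0.24 with 1 array left out. Adjusted p for the maturation genes other than ccmC ran from 0.298 for ccmB to 0.843 for ccmFN1.

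A splicing factor and a protein transporter complete the named protein genes. The maturase gene matR (ATMG00520) read 9.18, 9.17 and 9.41 in the mutant and 9.04, 8.87 and 8.64 in the wild type, a difference of 0.40 log2 units (SE 0.17, adjusted p 0.380). The row of mttB (ATMG00570), labelled orfX in the annotation and encoding a TatC-like translocase, read 9.14, 9.20 and 9.35 against 9.09, 8.99 and 8.78, a difference of 0.28 log2 units (SE 0.16, adjusted p 0.536). Both had separate groups.

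Ribosomal proteins of the small and large subunit accounted for 6 rows, with differences from 0.01 to 0.51 log2 units. None was past the adjusted threshold, and 2 were higher at an unadjusted p under 0.05, where 5.92% of all genes were. The row rps4 (ATMG00290) stood at 9.76, 9.77 and 10.25 in the mutant and at 9.38, 9.50 and 9.37 in the wild type, a difference of 0.51 log2 units (SE 0.18, adjusted p 0.307). For rpl16 (ATMG00080) the values were 11.02, 11.18 and 11.17 against 10.86, 10.74 and 10.44, with a difference of 0.45 log2 units. The row rpl5 (ATMG00210) read 11.37, 11.43 and 11.63 against 11.24, 11.06 and 11.24, with a difference of 0.30. Each of these 3 rows had separate groups.

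The rows rps7 and rpl2 also had separate groups with small differences. For rps7 (ATMG01270) the arrays read 8.44, 8.48 and 8.85 against 8.35, 8.28 and 8.25, a log2 fold change of 0.29, or 0.16 without atpip1;2-1 replicate 3. The row rpl2 (ATMG00560) read 12.56, 12.57 and 12.71 against 12.40, 12.44 and 12.43, a log2 fold change of 0.19. By contrast rps12 (ATMG00980), identical to the nuclear row AT2G07675, read 11.20, 11.10 and 11.00 against 11.21, 11.11 and 10.95, a difference of 0.01 log2 units (SE 0.16, adjusted p 0.991). Its sign changed under another scaling.

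Ribosomal RNAs form the catalytic and structural core of the mitochondrial ribosome, and none of their 3 rows had an unadjusted p under 0.05. The large-subunit rRNA rrn26 (ATMG00020) stood at 13.49, 13.47 and 13.48 in the mutant and at 13.40, 13.39 and 13.42 in the wild type, a difference of 0.08 log2 units (SE 0.15, adjusted p 0.883). The small-subunit rRNA rrn18 (ATMG01390) read 13.47, 13.55 and 13.39 against 13.38, 13.38 and 13.46, a log2 fold change of 0.07 with overlapping groups. The highest value of any gene lay between 14.10 and 14.28 on the 6 arrays, so both rows sit near the top of the range, and what part that has in their small differences was not tested. The 5S rRNA row rrn5 (ATMG01380) read 11.98, 11.92 and 12.30 against 11.60, 11.76 and 11.96, a difference of 0.30 log2 units (SE 0.18, adjusted p 0.543) with overlapping groups, or 0.18 without atpip1;2-1 replicate 3.

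Transfer RNAs decode mRNA on the mitochondrial ribosome, and 11 of the 13 tRNA rows had higher means in the mutant. The 13 rows hold 11 distinct sets of values, so some measurements are counted more than once. With such repeats included, 6 rows were higher at an unadjusted p under 0.05, where 5.92% of all genes were. The tRNA-Trp row ATMG00930 stood at 7.80, 7.55 and 7.92 in the mutant and at 7.12, 6.96 and 7.36 in the wild type, a difference of 0.61 log2 units (SE 0.18, adjusted p 0.223). A pair of tRNA-Tyr rows, ATMG00340 and ATMG00790, hold the same values, 5.73, 5.38 and 5.55 against 4.93, 4.71 and 5.21, and so count as 1 measurement with a log2 fold change of 0.60. The tRNA-Ser row ATMG00230 read 5.51, 5.13 and 5.69 against 5.07, 4.81 and 4.88, a log2 fold change of 0.52. Likewise the tRNA-Ser rows ATMG00420 and ATMG01160 hold the same values as each other, with a log2 fold change of 0.59, and are 1 measurement. These rows had separate groups.

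Of the 13 tRNA rows, 2 had lower means in the mutant and others lay near 0. The tRNA-Asn row ATMG00380 stood at 12.52, 12.42 and 12.40 against 12.40, 12.44 and 12.35, a log2 fold change of 0.05 that changed sign under another scaling. The tRNA-Pro row ATMG00350 read 8.32, 8.26 and 8.10 against 8.08, 8.35 and 8.45, a log2 fold change of -0.06. Singled out after its values were seen, the tRNA-Met row ATMG00250 had the most negative difference of all 140 rows, -0.45 log2 units (SE 0.21, adjusted p 0.437), at 4.78, 5.04 and 4.59 against 5.58, 4.88 and 5.30. Its groups overlapped, and the other tRNA-Met rows, ATMG00460 and ATMG01340, had differences of 0.36 and 0.28. All 13 tRNA rows share their values with nuclear rows because that identity was how they were recognised, and those nuclear rows lie on chromosome 2. A tRNA code without such a nuclear row would stand among the rows with no assigned product.

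Among the 88 rows with no assigned product, 77 had higher means in the mutant, 31 of them at an unadjusted p under 0.05 with 0 lower at that level. Of all genes, 5.92% were higher and 6.32% lower at that level. The row ATMG00810 stood at 5.42, 5.67 and 5.52 in the mutant and at 4.64, 4.71 and 4.83 in the wild type, a difference of 0.81 log2 units (SE 0.16, adjusted p 0.0861). The row ATMG01060 read 7.54, 7.42 and 7.26 against 6.62, 6.64 and 6.67, a difference of 0.76 log2 units (adjusted p 0.101). The row ATMG00940 read 6.33, 6.36 and 6.87 against 5.67, 5.55 and 5.67, a difference of 0.89 (adjusted p 0.108). None of the 88 passed the adjusted threshold.

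The row ATMG00370 differed by 0.72 log2 units (SE 0.15, adjusted p 0.108), with 10.62, 10.73 and 10.71 against 9.88, 9.97 and 10.07. At the other end, ATMG01300 (4.83, 4.03 and 4.44 against 4.60, 4.20 and 4.40) differed by 0.03, and ATMG01280 (8.40, 8.29 and 8.18 against 8.34, 8.34 and 8.23) by -0.01. The 11 rows of this class with lower means ran from -0.35 for ATMG00660 to -0.01, and none had an unadjusted p under 0.05. ATMG01050, at 8.64, 8.54 and 8.48 against 8.76, 8.98 and 8.73, was the row with all mutant arrays below the wild type. It and ATMG00660 were singled out after their values were seen. In all, 15 of the 88 rows match probe sets labelled with a gene symbol other than a locus code, and 1 of these is ATMG00370, whose probe set carries AT2G07739 and ycf1. The 11 rows matched to nad1 had log2 fold changes from 0.06 to 0.53, and some repeat a measurement. ATMG00440 and ATMG01140 hold the same values as each other and as the nuclear row AT2G07702. So do ATMG00430 and ATMG01150 with the nuclear row AT2G07701.

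Locus codes run along the mitochondrial genome, so neighbours in code are neighbours in position. Comparisons of 8 pairs of neighbouring or split genes asked whether their fold changes were unequal. These pairs are a selection, as neighbours such as nad9 and rpl16 were not compared. They include cob, the row with the largest fold change, and atp6-2, whose fold change lay near 0. The exact permutation p makes no allowance for a choice of pairs made with fold changes known, so it only describes the pairs listed. The cob row exceeded its neighbour rpl5, with which it is co-transcribed, by 1.01 log2 units in fold change, and the cob-minus-rpl5 difference lay between 0.14 and 0.42 on the mutant arrays and between -0.86 and -0.64 on the wild-type arrays. Probe sets matched to them also carry nuclear loci, AT2G07727 for cob and AT2G07725 for rpl5. The rows of these nuclear loci differed by 0.51 and 0.79 log2 units, and what part shared signal has in the contrast was not tested. The nad1 piece nad1c exceeded nad1b by 0.44 with separate arrays, and the nad2 piece nad2b exceeded nad2a by 0.21 with separate arrays. For these 3 pairs the exact permutation p was 0.1, two-sided, the smallest this design allows, and 0.2 after Benjamini-Hochberg adjustment over the 8 pairs.

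The other pairs overlapped between groups, apart from atp6-1 and atp6-2 described above. The piece nad5c exceeded nad5a by 0.15, nad1c exceeded nad1a by 0.41, atp4 exceeded its neighbour nad4L by 0.18 and nad3 exceeded its neighbour rps12 by 0.24 log2 units. Exact permutation p was 0.2 for 3 of these and 0.4 for atp4 against nad4L. No pair passed an adjusted p of 0.05, which 3 against 3 arrays cannot reach in this test.

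**Figure D3:**
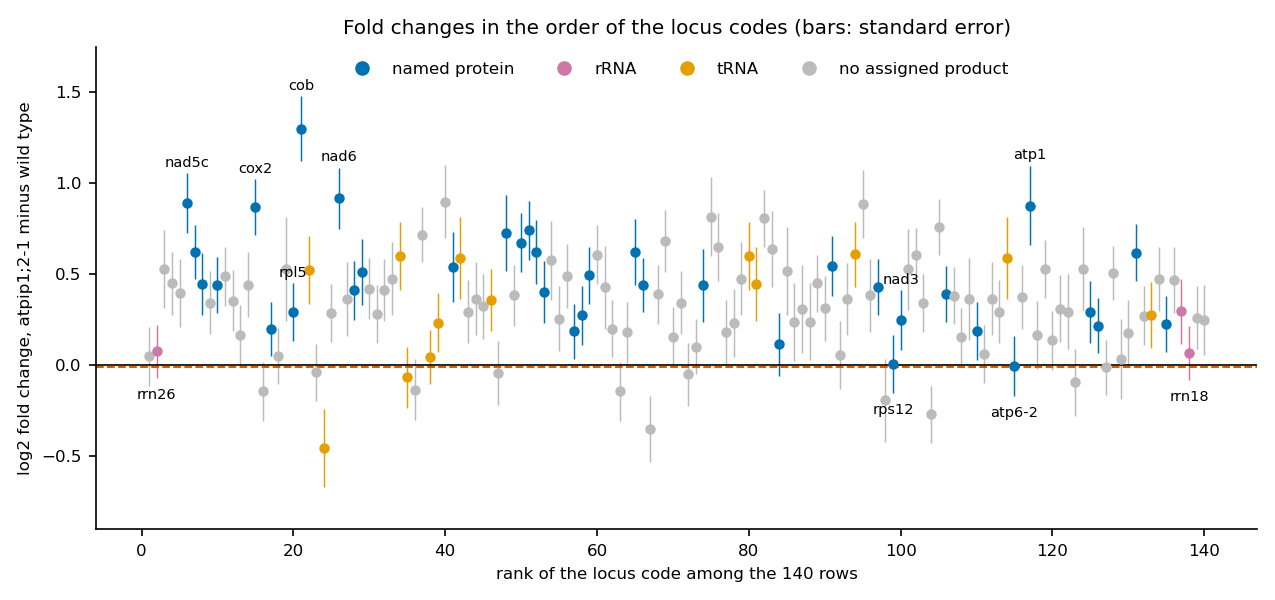
Log2 fold change (y axis, bars are standard errors) of the 140 mitochondrion-encoded rows in the order of their locus codes (x axis, rank), coloured by class; the dashed line is the median of all genes. Values above 0 extend across the whole series of codes, with cob at 1.30 beside rpl5 at 0.30.

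The mutant arrays did not contribute equally. Averaged over the 140 rows, the level was 8.10, 8.08 and 8.33 on atpip1;2-1 replicates 1, 2 and 3 and 7.79, 7.81 and 7.82 on the wild-type arrays. Replicate 3 held the highest mutant value on 100 of the 140 rows. Without it, the median log2 fold change of the 140 rows was 0.26 and 128 rows were higher in the mutant. An unadjusted p under 0.05 was found for 37 rows and for 10.2% of all genes. In that fit 0 of the 140 rows passed the adjusted threshold, beside 24 of all 28387 genes, where the main fit called 97. Leaving out any other single array also left 0 of the 140 called. Class means showed the same order for complex I, where replicates 1, 2 and 3 stood at 11.02, 11.00 and 11.19 against 10.57, 10.53 and 10.46 in the wild type. For rRNA the class means were 12.98, 12.98 and 13.06 against 12.79, 12.84 and 12.95.

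**Figure D4:**
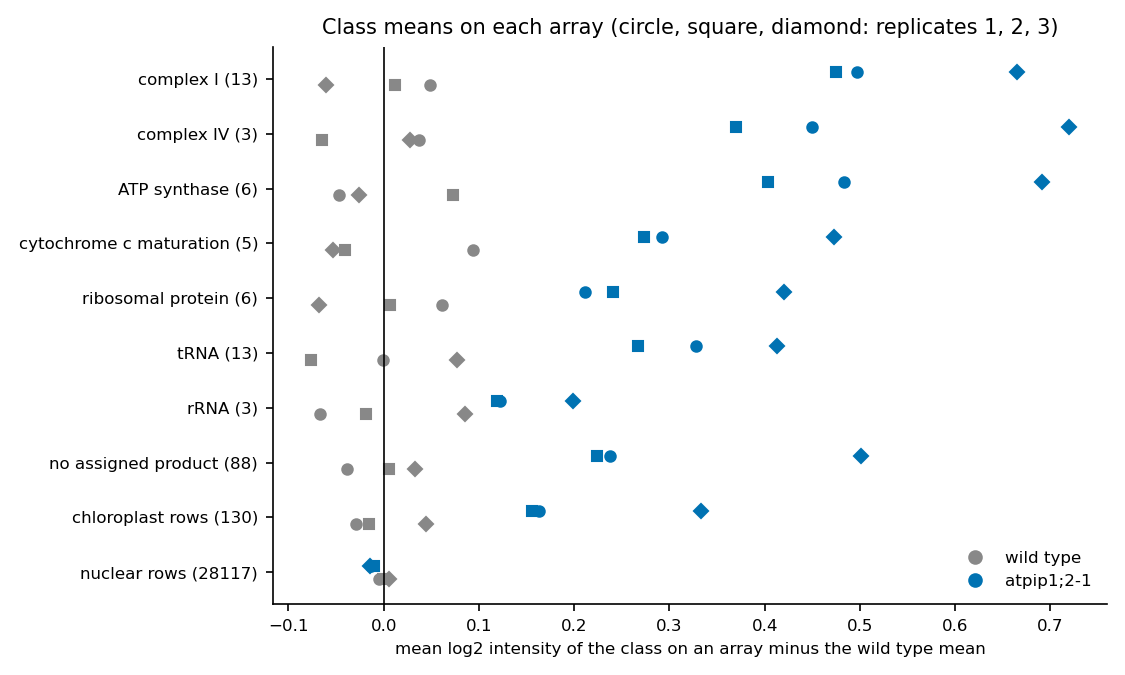
Mean log2 intensity of each class on an array minus its wild-type mean (x axis) for 8 classes of mitochondrion-encoded rows, the chloroplast rows and the nuclear rows (y axis, number of rows in brackets); grey marks are wild-type arrays and blue marks atpip1;2-1 arrays. Blue marks lie to the right of grey marks in every class of organelle rows, with replicate 3 farthest, and nuclear rows lie at about 0.

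Some of these rows cannot be read as mitochondrial alone. A large insertion of mitochondrial DNA lies on chromosome 2 of the nuclear genome, and the table has 114 rows with codes from AT2G07, the stretch that holds it. Of the 140 mitochondrial rows, 22 have values identical on all arrays to 20 of those nuclear rows, and 14 are identical to another mitochondrial row. In all, 20% of the mitochondrial rows were identical to some other row, against 1.81% of all rows. The 22 rows had a median difference of 0.36 log2 units, 20 of them higher, and the 118 others a median of 0.37, 106 of them higher. The 118 are not free of nuclear overlap in the annotation. Among others, cob, rpl5, atp9, cox3, atp6-1, nad1a, rps4 and rps7 match probe sets that carry AT2G07 loci. For identical rows, mitochondrial and nuclear origin cannot be told apart, and for the 118 cross-hybridization was not tested.

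The 94 AT2G07 rows with values of their own had a median difference of 0.17 log2 units, with 71 higher in the mutant. Of the 94, 2 rose past the threshold, as did 0.187% of all genes. These were AT2G07678, at 7.71, 7.47 and 8.02 against 6.02, 5.92 and 5.68 (adjusted p 0.00912), and AT2G07768, at 6.38, 6.77 and 6.83 against 5.20, 4.90 and 4.87 (adjusted p 0.0105). The nuclear row AT2G07725, whose symbol stands beside rpl5 on a probe set, was higher by 0.79 log2 units (adjusted p 0.108). Chloroplast genes, 130 rows, had a median difference of 0.15 log2 units, with 98 higher, and their mean level was also highest on atpip1;2-1 replicate 3. Of the 130, 4 rose past the threshold, beside 1 of the 140 mitochondrial rows and 0.187% of all genes. No test of the difference between the mitochondrial rows and these groups was made.

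The deposited probe-set table comes from the same 6 arrays, so its values are not independent of the rows above. It holds 38408 probe sets, of which 27 carry a single mitochondrial symbol, and 7 of those are labelled nad1, a label shared by rows of several codes. All 20 others were higher in the mutant, where 46.1% of all probe sets were. Of these 20, 13 had an unadjusted p under 0.05, where 4.72% of all probe sets were higher at that level. None of the 20 passed an adjusted p of 0.05, as 0.00781% of all probe sets did, 3 in number. The nad1 probe sets were also higher, by 0.07 to 0.53 log2 units. Their smallest unadjusted p in limma's test was 0.00624, and the others ran from 0.0560 to 0.636. The labels nad2 and nad5 also stand on several probe sets, which were kept among the 20. Many of the 20 repeat measurements given above. Those of atp1, cox1, matR, nad4L, nad6, nad9, orfX, ccb203, ccb206, ccb382 and a nad2 probe set match a mitochondrial row by their values. The probe set labelled cox2, which matches no mitochondrial row, had a log2 fold change of 0.99 (SE 0.14). It stood at 10.18, 10.10 and 10.45 in the mutant and at 9.26, 9.19 and 9.30 in the wild type.

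Nuclear genes of mitochondrial function make the rest of the pathway and were taken from a list of 90 genes of which 89 were measured. None passed the adjusted threshold in limma's test, and 2 were higher and 6 lower at an unadjusted p under 0.05, where 12.2% of all genes had such a p in either direction. Their median log2 fold change was 0.00, with 45 higher and 44 lower. The nuclear sub-lists for the complexes are not limited to subunits, as that of complex IV holds the copper chaperone gene HCC1. Their median log2 fold changes were 0.06 over 18 genes listed for complex I and 0.04 over 11 for complex III and cytochrome c. They were -0.01 over 10 for complex IV and -0.02 over 9 for the ATP synthase. The mitochondrion-encoded medians for the same complexes were 0.62, 1.30, 0.44 and 0.58, where the value for complex III is the 1 row of cob.

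**Figure D5:**
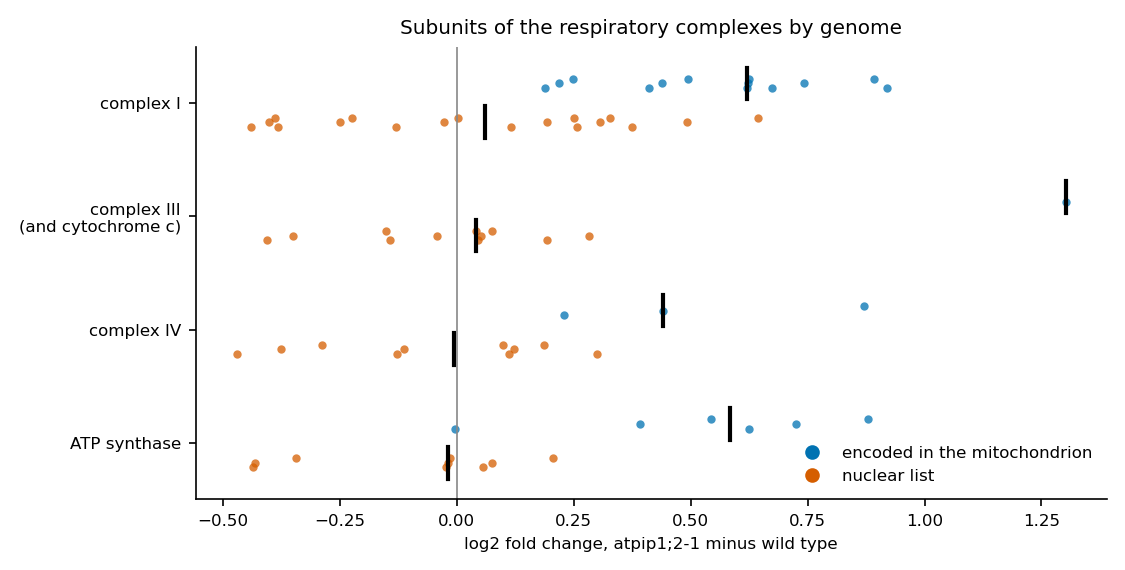
Log2 fold change (x axis) of mitochondrion-encoded rows (blue) and genes of the nuclear list (orange) for each respiratory complex (y axis), with medians as black bars. The nuclear-encoded genes spread to both sides of 0, and of the 23 mitochondrion-encoded rows only atp6-2 lies below 0.

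The genes named from the nuclear list lay on either side of 0. The complex I subunit gene AT5G47890 had a log2 fold change of 0.64 (adjusted p 0.271), and EMB1467, a peripheral-arm subunit gene, -0.40 (adjusted p 0.342). In complex II, SDH1-1 and SDH3-1 had values of 0.24 and -0.31. The processing peptidase subunit gene MPPalpha and AT4G32470, both of complex III, had -0.35 and -0.41. The complex IV gene AT3G15640 had -0.47 (adjusted p 0.278) and the copper chaperone gene HCC1 -0.38. In the ATP synthase, MGP1 and AT5G47030 had -0.44 and -0.43. Several of these values rested on 1 array. Without atpip1;2-1 replicate 3, MPPalpha was at -0.19, AT4G32470 at -0.0891, HCC1 at -0.15, AT5G47030 at -0.24, SDH1-1 at 0.12 and SDH3-1 at 0.0447. SDH1-1 was at 0.11 without wild type replicate 3, AT5G47890 at 0.42 without wild type replicate 1 and SDH3-1 at -0.51 without atpip1;2-1 replicate 1.

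Alternative respiration bypasses complexes III and IV or the proton-pumping complex I. The alternative oxidase gene AOX1A, a common marker of mitochondrial dysfunction, stood at 4.70, 5.41 and 5.00 in the mutant and at 5.01, 5.05 and 4.56 in the wild type, a difference of 0.17 log2 units (SE 0.22, adjusted p 0.819) with overlapping groups, which ran from -0.02 to 0.33 with 1 array left out. The external NADH dehydrogenase gene NDB2 read 3.72, 4.19 and 3.60 against 4.54, 5.12 and 4.52, a difference of -0.89 log2 units (SE 0.23, adjusted p 0.168) with separate groups. AOX1B read 2.33, 1.79 and 2.84 against 1.21, 0.96 and 1.81, a difference of 0.99 (adjusted p 0.231) and its mean lay among the dimmest 25% of genes.

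Genes that copy, transcribe and process mitochondrial nucleic acids also showed no call. The organellar DNA polymerase gene POLGAMMA1 had a log2 fold change of -0.41 (adjusted p 0.470), and AT1G30680, the TWINKLE helicase homologue, -0.16. The RNA editing factors MORF1 and MORF3 had -0.45 and -0.30, with adjusted p of 0.559 and 0.578. With 1 array left out, MORF1 ran from -0.69 to -0.18, MORF3 from -0.46 to -0.16, AT1G30680 from -0.32 to -0.0618 and POLGAMMA1 from -0.62 to -0.29. Over the 9 genes of DNA maintenance and transcription the median was 0.02, and over the 15 genes of RNA processing it was -0.18, with 0 at an unadjusted p under 0.05 in either list.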

How the data were processed

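Leaf RNA of 3 atpip1;2-1 and 3 wild-type samples was labelled with biotin and hybridised to 1-colour Affymetrix arrays with whole-transcript kits, per the labels' protocols. The deposited table per gene holds RMA log2 values made by the authors. RMA and Partek are named in the submitters' processing notes; for settings, genome build, slide and scan date nothing is given in the sources used here. The scale of the deposited probe-set table is not stated and was taken as log2 from its values. The values were used as deposited, without a filter. Arrays have no count depth, so precision is limited by the number of arrays.

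A 2-group linear model was fitted to all 28387 genes with limma 3.58.1 in R 4.3.3 (lmFit, eBayes, two-sided), p-values adjusted by Benjamini-Hochberg across the whole table, and 0.05 as threshold. It was tested on simulated data first. The replicates are labelled biological, each from a pool of plants, and p-values measure the spread between these pools. The members, product names and nuclear list were chosen with earlier results of these data known. Every member and every nuclear-list gene past the threshold was named, with all members of complexes III and IV, ATP synthase, cytochrome c maturation and rRNA, the 4 smallest and 2 largest unadjusted p in every other class, the 2 smallest in each nuclear sub-list, and AOX1A. The classes were to come from the RefSeq gene table (TAIR10.1), in which 0 of the 140 codes occur, so a list of 39 codes from the public locus nomenclature was used. No coordinates are given. Figures were drawn with matplotlib 3.10.9.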

Additional observations from a re-analysis of the deposited data

How the results depend on the processing

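The median log2 fold change of the 140 rows stayed positive in every alternative run, between 0.26 and 0.42 with single arrays left out and between 0.33 and 0.40 under array weights, renewed quantile normalization or equal nuclear medians, and 123 to 128 rows were higher in the mutant throughout apart from filters that removed rows. The number of called rows was unstable. It was 2 without the dimmest 25% of genes, 9 without the dimmest 50%, 22 with a variance trend and robust fitting, 2 with array weights, 5 at an adjusted p threshold of 0.10, 0 without moderation of the spread and 0 to 0 over the 6 fits that leave out an array. It stayed at 1 after either rescaling and when rows identical to a nuclear row were left out (median 0.37) or identical rows were counted once (median 0.37), both chosen after seeing the data. Calls over all genes moved too, from 97 in the main fit. They numbered 123 of 21295 without the dimmest 25% and 196 of 14194 without the dimmest 50%. There were 375 with a variance trend and robust fitting, 138 with array weights and 191 at the 0.10 threshold. Without moderation 0 were called, and 14 to 48 with an array left out. With the replicate number as a block, 0 of the 140 rows and 45 of all genes were called, and cob had an adjusted p of 0.0626. An unadjusted p under 0.05 was found for 61 of the 140 and 12.4% of all genes. Replicate numbers share no pairing in the labels. Correlations of same-numbered deviations were 0.0085, 0.0498 and 0.0745 over all rows and 0.147, 0.0924 and 0.24 over the 140 rows. They were not all above 0.1 in either case. The nuclear list had 0 calls in every alternative.

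Rows near 0 changed sign. Renewed quantile normalization gave -0.0862 for rps12 (ATMG00980) and -0.0911 for ATMG00380, equal nuclear medians gave 0.0291 for atp6-2 (ATMG01170) and 0.0229 for ATMG01280, and the probe-set table gave -0.0634 for SDH1-1 (AT5G66760). With single arrays left out, rps12 ran from -0.0623 to 0.069, atp6-2 from -0.106 to 0.0772, ATMG01280 from -0.066 to 0.0445, ATMG01300 from -0.16 to 0.23, ATMG00350 from -0.17 to 0.0128, AOX1A (AT3G22370) from -0.0200 to 0.335 and SDH3-1 (AT5G09600) from -0.51 to 0.0447. The causes were not tested. The probe-set alternative gave no value for mitochondrial codes, since the platform annotation pairs 0 of them with a probe set (127 match one by their values, and probe sets with a mitochondrial symbol are described above), and 41 genes of the nuclear list had a probe set of their own. Leaving out members by protein identity was not run, since no protein table was used here.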
